A study of Mus musculus with 6 samples.

Results

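The interferon-stimulated genes described here are a list of 42 genes induced by interferon, of which 38 had an Affymetrix probe set assigned to them alone, among 12393 such genes in all. Each gene was represented by its brightest probe set over the 6 arrays. Isg15 was left out because its probe set also carries the name of another gene, and Herc6, Ifi44 and Xaf1 were not analysed here for want of a probe set of their own. Cells came from the marrow of C57/BL6 animals, 6 to 8 weeks old, which was depleted of lineage-positive cells and infected with lentivirus for 24 h. Cells that withstood puromycin at 1 µg/mL overnight were sorted as live, plated at 10000 cells per mL in methylcellulose with cytokines that the labels do not name, and collected on day 7. The 3 groups of 2 arrays each were an empty lentivirus, a lentivirus with the hairpin Rad21 shRNA1 and one with Rad21 shRNA2, so that infection and puromycin selection were shared by every array. Each knockdown group is 1 hairpin, no uninfected cells were among the samples used, and the labels do not say whether arrays of a group came from separate animals or cultures. The p-values therefore rest on the spread of these arrays alone, and that spread may be technical.

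Rad21 is a subunit of cohesin, the ring-shaped complex that holds sister chromatids together and shapes chromatin loops. Type I interferons bind a receptor of Ifnar1 and Ifnar2, whose kinases Jak1 and Tyk2 activate the complex ISGF3. This complex contains Stat2 and Irf9, binds the interferon-stimulated response element (ISRE) and switches on genes whose products block virus entry, translation and replication, present antigen, or feed back on the pathway. Hematopoietic cells keep a low tonic level of this signalling, and in marrow interferon is known for driving quiescent stem cells into cycle.

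The stretches before the start of 4 genes are shown because 3 of them, Ifit1, Rsad2 and Oasl2, are among the members that fell most, while Ifit3 lies near Ifit1, has the same kind of matches and differed less. They are RefSeq sequences of build GRCm38.p6, 250 bases ending just before the transcription start, written in the gene's own direction, with ISRE matches in capitals. Ifit1 lies at chr19:34640639-34640888 on the plus strand, Ifit3 at chr19:34583279-34583528 on the plus strand, Rsad2 at chr12:26456453-26456702 on the minus strand and Oasl2 at chr5:114896684-114896933 on the plus strand.
Ifit1: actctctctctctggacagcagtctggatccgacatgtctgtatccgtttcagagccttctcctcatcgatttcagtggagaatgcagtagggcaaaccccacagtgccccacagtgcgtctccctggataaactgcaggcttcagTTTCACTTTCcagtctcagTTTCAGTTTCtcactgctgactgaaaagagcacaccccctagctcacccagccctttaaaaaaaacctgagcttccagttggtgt
Ifit3: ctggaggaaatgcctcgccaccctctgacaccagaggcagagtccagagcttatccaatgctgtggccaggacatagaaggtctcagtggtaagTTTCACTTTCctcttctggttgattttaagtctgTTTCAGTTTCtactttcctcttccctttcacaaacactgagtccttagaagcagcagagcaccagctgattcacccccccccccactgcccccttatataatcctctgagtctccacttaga
Rsad2: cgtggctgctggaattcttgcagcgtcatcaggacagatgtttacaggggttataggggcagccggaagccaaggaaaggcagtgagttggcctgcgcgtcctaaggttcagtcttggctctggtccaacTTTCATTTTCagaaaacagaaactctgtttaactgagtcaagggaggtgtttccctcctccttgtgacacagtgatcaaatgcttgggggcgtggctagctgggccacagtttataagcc
Oasl2: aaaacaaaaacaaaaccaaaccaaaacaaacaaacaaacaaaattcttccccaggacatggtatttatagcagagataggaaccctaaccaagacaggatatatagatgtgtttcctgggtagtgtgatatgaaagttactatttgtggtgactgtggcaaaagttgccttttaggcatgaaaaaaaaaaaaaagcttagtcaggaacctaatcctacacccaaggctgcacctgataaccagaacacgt
The 2 matches before Ifit1 began 85 and 104 bases before the start, those before Ifit3 began 122 and 156 bases before it, and the match before Rsad2 began 120 bases before it. All of them read in the opposite direction to the gene. The stretch before Oasl2 held none of these letters, which says only that they are not in this window.

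Windows of 300 bases, 250 before and 50 after a start, were searched on both strands for the ISRE as GAAANNGAAA and for the gamma-activated site (GAS), which STAT dimers bind, as TTCNNNGAA. RefSeq windows were found for 35 of the 42 listed genes and for 31 of the 38 measured ones, with none for Dhx58, Mx1, Mx2, Parp14, Rtp4, Usp18 and Zbp1. An ISRE match was present in 14 of the 35 listed genes (40%), against 3.99% of 27025 genes with a window, or 3.44% of all 32851 windows. A GAS match was present in 11 of the 35 (31.4%), against 9.55% of genes and 8.3% of windows. The motifs overlapped each other in Bst2 and Ifitm3. Among the measured members, the 13 with an ISRE match had a median log2 difference between both shRNAs and empty vector of -0.54 (range -3.17 to 0.71), and the 18 with a window and no match had one of -0.28 (range -2.63 to 0.60). Both ranges span nearly the whole set, and a match is a description of letters rather than of a bound site.

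Rad21 itself, the check of the labels, read 11.14 and 10.49 on the empty-vector arrays, 9.63 and 9.14 with shRNA1, and 9.50 and 9.11 with shRNA2, on the log2 intensity scale used for all levels here. All 4 shRNA arrays lay below both control arrays, at 36.0% of the control level (log2 difference -1.47 ± 0.26 SE, limma adjusted p = 0.0558, and 0.0166 with the replicate number as a block). The array of empty vector replicate 1 stood apart. Its Gapdh control probe sets gave a 3′ minus 5′ difference of 2.42 in log2 intensity, a common measure of RNA integrity, against -0.08 to 0.02 on the other 5 arrays, and for Actb this was 2.55 against 0.22 to 0.33. The root mean square spread of all genes around the group mean was 0.321 for empty vector, 0.152 for shRNA1 and 0.141 for shRNA2. The limma fit shared 1 spread per gene over the 3 groups, so SEs and adjusted p-values against empty vector can understate the variation between controls. The bone marrow label was checked against 7 hematopoietic markers, whose summed intensity ran from 26248 to 30783 over the 6 arrays, and Ptprc, the leukocyte antigen CD45, read from 11.66 to 12.12. In bulk samples such as these, fewer cells of a type and less RNA per cell cannot be told apart.

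Interferon-stimulated genes were mostly lower when Rad21 was targeted, and 4 of them fell: Ifit1, Rsad2, Oasl2 and Usp18, to between 11.1% and 21.8% of the empty-vector level. The list was chosen with earlier results of these data known, so its shares beside those of all genes are descriptions and not tests. Of the 38 members, 33 had a log2 difference between both shRNAs and empty vector below 0 (86.8%), against 53.6% of all genes. The median difference of the members was -0.49 (quartiles -0.81 and -0.23), beside -0.02 for all genes (quartiles -0.20 and 0.18). A difference of -1 or lower was found for 7 members (18.4%), against 3.11% of all genes. The 4 that fell at an adjusted p under 0.05, two-sided and adjusted over all 12393 genes, are 10.5% of the members, against a background of 1.4% of all genes called lower. None was called higher, where the background was 0.734%, and none was higher at an unadjusted p under 0.05, where it was 7.88%. At that unadjusted threshold 16 members were lower (42.1%), against 8.84% of all genes. The count of 4 depended on single arrays. It was 12 without empty vector replicate 1, 19 without empty vector replicate 2 (14 lower and 5 higher), and 2 without shRNA1 replicate 2, where 0.484% of all genes were called lower. It was 0 without shRNA1 replicate 1, shRNA2 replicate 1 or shRNA2 replicate 2, where 0.0646%, 0.00807% and 0.161% of all genes were called lower. In those 3 fits 12, 12 and 14 members were lower at an unadjusted p under 0.05, against 5.45%, 5.9% and 6.29% of all genes.

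**Figure D1:**
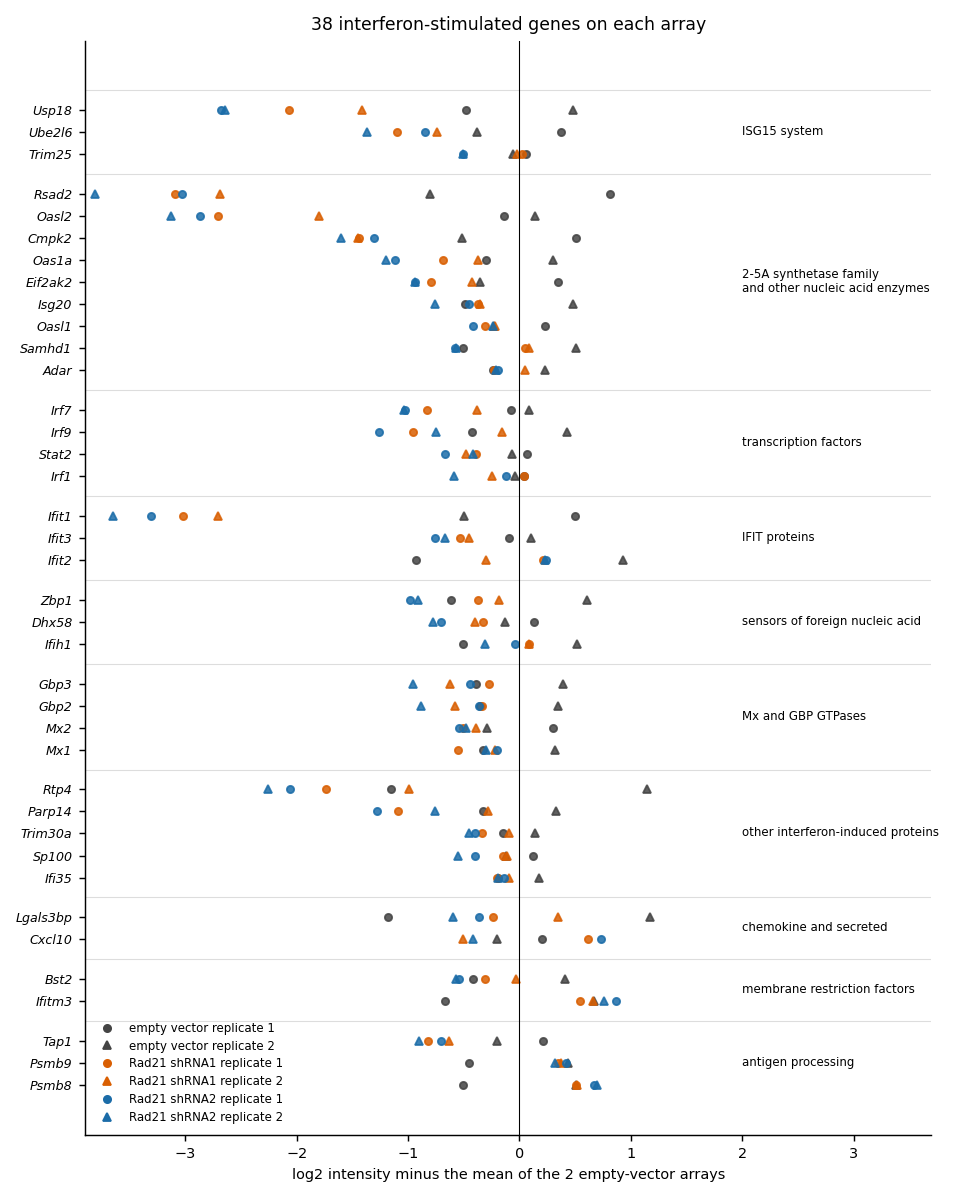
Each of the 38 members is a row, grouped by role, with the log2 intensity of each array minus the mean of the 2 empty-vector arrays on the horizontal axis. Grey marks are empty vector, orange shRNA1 and blue shRNA2, with circles for replicate 1 and triangles for replicate 2. Ifit1, Rsad2, Oasl2 and Usp18 have all 4 shRNA arrays far to the left of both controls, whereas for Ifitm3, Psmb8 and Psmb9 only empty vector replicate 1 lies apart.

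By order of the arrays alone, all 4 shRNA arrays were below both empty-vector arrays for 14 members (36.8%), against 13.6% of all genes, and above both for none, against 11.5%. The 14 were Cmpk2, Dhx58, Eif2ak2, Ifit1, Ifit3, Irf7, Mx2, Oas1a, Oasl2, Rsad2, Stat2, Tap1, Ube2l6 and Usp18. They include enzymes acting on nucleic acid, effectors of translation block and the factors Irf7 and Stat2. For Cmpk2, Dhx58, Eif2ak2, Stat2 and Tap1 this order held for the brightest probe set but not for every other set of the gene.

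Of the IFIT proteins, which bind foreign 5′ ends of RNA and hold back its translation, Ifit1 fell and its relatives did not pass the test. Ifit1 read 9.0 and 8.0 with empty vector, 5.48 and 5.79 with shRNA1, and 5.19 and 4.85 with shRNA2. The lowest control array was thus more than 2 log2 units above the highest shRNA array. The log2 difference was -3.17 ± 0.30 SE, a 9.01-fold lower intensity (limma adjusted p = 0.0133, lower in 4 of 4 shRNA arrays, adjusted p from 0.0024 to 0.0807 over the alternatives). Ifit3 read 6.37 and 6.56 with empty vector, 5.93 and 6.01 with shRNA1, and 5.70 and 5.79 with shRNA2, so the groups did not overlap but lay close together (log2 difference -0.61 ± 0.13 SE, adjusted p = 0.0966). Ifit2 read 5.93 and 7.79 on the control arrays, 7.07 and 6.56 with shRNA1, and 7.10 and 7.09 with shRNA2. All 4 shRNA values of Ifit2 lay between the control arrays, with a log2 difference of 0.09 ± 0.50 SE (adjusted p = 0.953). The RefSeq gene order places no gene between Ifit2 and Ifit3 on chromosome 19 and 3 genes between Ifit3 and Ifit1, so neighbours of 1 cluster differed by -3.17, -0.61 and 0.09.

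The ISG15 system attaches the ubiquitin-like protein Isg15 to other proteins. Usp18, which removes Isg15 and also restrains signalling at the receptor subunit Ifnar2, read 8.16 and 9.12 with empty vector, 6.57 and 7.23 with shRNA1, and 5.96 and 6.00 with shRNA2. Both shRNA2 arrays were below both shRNA1 arrays, and all 4 below the controls. Usp18 fell by 2.20 ± 0.32 SE on the log2 scale, 4.58-fold (adjusted p = 0.0365, lower in 4 of 4 shRNA arrays, 0.00895 to 0.166 over the alternatives). An offset of 16 before log2 ended this call. Ube2l6, the conjugating enzyme for Isg15, read 7.55 and 6.80, then 6.08 and 6.44, then 6.33 and 5.81, in the same order of groups. These groups did not overlap either, but the control arrays were 0.75 apart and the log2 difference of -1.01 ± 0.27 SE did not pass (adjusted p = 0.152). Trim25, a ligase that activates the sensor RIG-I, had a difference of -0.25 ± 0.12 SE (adjusted p = 0.381).

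All 9 members in the group of 2′-5′ oligoadenylate synthetases and other enzymes that act on nucleic acids or nucleotides had a difference below 0, with a median of -0.78, and Rsad2 and Oasl2 passed the test. Rsad2 encodes viperin, which makes a chain-terminating nucleotide. It read 11.69 and 10.08 with empty vector, 7.79 and 8.19 with shRNA1, and 7.85 and 7.07 with shRNA2. The control arrays were far apart but both well above every shRNA array, and the log2 difference was -3.16 ± 0.48 SE, 8.92-fold (adjusted p = 0.0411, lower in 4 of 4 shRNA arrays, 0.0028 to 0.188 over the alternatives). The size depended on the control array, at 5.1-fold without empty vector replicate 1 and 15.6-fold without replicate 2. Quantile normalization of the deposited values ended this call, as did an offset of 16 before log2. Oasl2, a synthetase-like protein with ubiquitin-like domains, read 7.39 and 7.67 with empty vector, 4.82 and 5.73 with shRNA1, and 4.66 and 4.40 with shRNA2. The controls of Oasl2 agreed closely, and its log2 difference was -2.63 ± 0.28 SE, 6.2-fold (adjusted p = 0.0154, lower in 4 of 4 shRNA arrays, 0.00733 to 0.088 over the alternatives).

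The other enzymes of this group did not pass the test. Cmpk2, a mitochondrial nucleotide kinase whose gene adjoins Rsad2 on chromosome 12 with no gene between, read 8.23 and 7.20, then 6.28 and 6.27, then 6.41 and 6.12. Its 4 shRNA arrays were tightly grouped below both controls (log2 difference -1.45 ± 0.30 SE, adjusted p = 0.0817). Oas1a, which makes the 2′-5′ oligoadenylates that activate RNase L, read 9.51 and 10.11 with empty vector, 9.12 and 9.44 with shRNA1, and 8.69 and 8.61 with shRNA2. Its groups fell in the order control, shRNA1, shRNA2 with no overlap, though shRNA1 replicate 2 lay just under the lower control (log2 difference -0.84 ± 0.21 SE, adjusted p = 0.123). Eif2ak2, the kinase PKR that stops translation on double-stranded RNA, had a difference of -0.78 ± 0.23 SE (adjusted p = 0.183). Isg20, an exonuclease, had -0.48, Oasl1 -0.30, the nucleotide hydrolase Samhd1 -0.25 and the RNA editor Adar -0.14. Oasl1 and Oasl2 are neighbours on chromosome 5 with no gene between, and their differences were -0.30 and -2.63.

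None of the 4 transcription factors among the members passed, with differences from -0.83 to -0.23 and a median of -0.64. Irf7, which amplifies interferon production, read 7.42 and 7.59 with empty vector, 6.67 and 7.12 with shRNA1, and 6.47 and 6.46 with shRNA2. The controls were 0.18 apart and above every shRNA array (log2 difference -0.83 ± 0.17 SE, adjusted p = 0.0847). Irf9, the DNA-binding subunit of ISGF3, read 7.06 and 7.92, then 6.53 and 7.33, then 6.23 and 6.74. In each group replicate 1 was the lower array, and shRNA1 replicate 2 exceeded empty vector replicate 1 (difference -0.78 ± 0.34 SE, adjusted p = 0.332, and 0.0740 with the replicate block). Stat2, its partner in ISGF3, had -0.49 ± 0.14 SE (adjusted p = 0.174), and Irf1, which responds mainly to interferon gamma, -0.23 ± 0.18 SE (adjusted p = 0.614).

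The sensors of foreign nucleic acid among the members were below the controls on average without passing the test. Dhx58, the helicase LGP2, had a difference of -0.55 ± 0.14 SE (adjusted p = 0.13), Zbp1, a sensor of left-handed nucleic acid, had -0.61 ± 0.33 SE (adjusted p = 0.433), and Ifih1, the helicase MDA5, had -0.05 ± 0.29 SE (adjusted p = 0.96). The large GTPases lay in a narrow range, with Gbp3 at -0.57, Gbp2 at -0.54, Mx2 at -0.48 and Mx1 at -0.32. Mx1, whose protein blocks influenza virus in mice with an intact gene, was the only member among the dimmest 25% of genes, and was highest on empty vector replicate 2. C57 strains are known to carry a disrupted Mx1 gene.

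Antigen processing and membrane proteins had differences in both directions, and none of these 5 members passed. Tap1, a subunit of the peptide transporter into the endoplasmic reticulum, had a difference of -0.77 ± 0.17 SE (adjusted p = 0.102). Psmb8, a subunit of the immunoproteasome that cuts these peptides, read 9.53 and 10.55 with empty vector, 10.55 and 10.56 with shRNA1, and 10.71 and 10.74 with shRNA2. Psmb9, another such subunit, read 8.06 and 8.95, then 8.86 and 8.88, then 8.93 and 8.83. For both genes, empty vector replicate 1 was lowest and the other 5 arrays were close together. The log2 differences were 0.60 ± 0.28 SE for Psmb8 (adjusted p = 0.361) and 0.37 ± 0.26 SE for Psmb9 (adjusted p = 0.544). Tap1 lies next to both proteasome genes on chromosome 17 with no gene between.

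Ifitm3, which keeps enveloped viruses from fusing in endosomes, read 10.65 and 11.99 with empty vector, 11.86 and 11.98 with shRNA1, and 12.19 and 12.08 with shRNA2. Again only empty vector replicate 1 stood low, and the log2 difference was 0.71 ± 0.36 SE (adjusted p = 0.399). Bst2, or tetherin, which holds budding virions at the cell surface, had -0.36 ± 0.25 SE (adjusted p = 0.553). The chemokine Cxcl10, a ligand of Cxcr3, read 6.80 and 6.40, then 7.22 and 6.09, then 7.33 and 6.18. Its replicate 1 arrays were above its replicate 2 arrays in all 3 groups, and the groups overlapped (difference 0.10 ± 0.44 SE, adjusted p = 0.939). The secreted glycoprotein Lgals3bp had controls 2.35 apart, with all 4 shRNA arrays between them (-0.21 ± 0.62 SE, adjusted p = 0.914).

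Of the remaining members, Rtp4, an interferon-induced chaperone of membrane receptors, read 7.67 and 9.97 with empty vector, 7.08 and 7.83 with shRNA1, and 6.76 and 6.56 with shRNA2. The gap of 2.30 between its controls was wider than its log2 difference of -1.76 ± 0.62 SE (adjusted p = 0.243). Parp14, an ADP-ribosyltransferase, read 7.77 and 8.43, then 7.01 and 7.82, then 6.82 and 7.34. Within each replicate number both shRNA arrays of Parp14 were below the control, although shRNA1 replicate 2 was above empty vector replicate 1 (difference -0.85 ± 0.32 SE, adjusted p = 0.26, and 0.0557 with the replicate block). Trim30a at -0.32, Sp100 at -0.30 and Ifi35 at -0.15 completed the group, and none passed.

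Each hairpin was also compared with the same 2 control arrays, so the comparisons share those arrays and are given side by side. With shRNA2, Ifit1, Rsad2, Oasl2 and Usp18 fell (4 of 38, 10.5%, against 1.95% of all genes called lower), and the median difference of the members was -0.59 beside -0.01 for all genes. With shRNA1 no member passed, where the background was 0.137%, and the median was -0.37 beside -0.03. At an unadjusted p under 0.05, 18 members were lower with shRNA2 (47.4%, background 9.24%) and 10 with shRNA1 (26.3%, background 5.44%). For Ifit1 the log2 difference was -2.86 ± 0.35 SE with shRNA1 (adjusted p = 0.0552) and -3.48 ± 0.35 SE with shRNA2 (adjusted p = 0.013). Rsad2 gave -2.89 (adjusted p = 0.158) and -3.42 (adjusted p = 0.0387), Oasl2 -2.26 (0.0743) and -3.01 (0.0145), and Usp18 -1.74 (0.189) and -2.65 (0.0273), each in the order shRNA1, shRNA2. With the replicate block, 6 members passed for shRNA2, against 2.47% of all genes called lower, the further ones being Parp14 (adjusted p = 0.0432) and Irf9 (adjusted p = 0.0499). Without empty vector replicate 1, 14 members were called lower with shRNA2, against 5.41% of all genes, and 3 with shRNA1, against 0.621%. Without empty vector replicate 2, the shRNA2 calls were 15 lower and 4 higher, against 11.2% and 12.5% of all genes, and the shRNA1 calls 9 lower and 5 higher, against 9.34% and 11.1%. The shRNA2 count was 2 without either shRNA1 array (0.694% of all genes lower in both fits). It was 0 without shRNA2 replicate 1 or replicate 2, where 0.00807% and 0.0% of all genes were called lower. In each of those fits 11 members were lower at an unadjusted p under 0.05, against 5.16% and 5.76% of all genes.

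**Figure D2:**
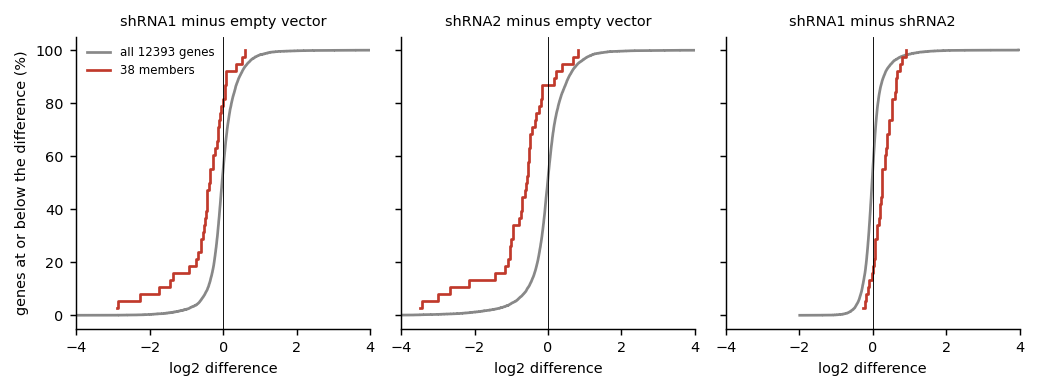
Cumulative share of genes at or below each log2 difference for shRNA1 minus empty vector, shRNA2 minus empty vector and shRNA1 minus shRNA2, with the 38 members in red and all 12393 genes in grey. The axis ends at -4 and 4. The members' line lies to the left of the line of all genes in both comparisons with empty vector, with medians of -0.37 and -0.59, and to its right between the hairpins, with a median of 0.25.

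Set directly against each other, the hairpins gave no member past the threshold, and no gene of the 12393 passed either (background 0.0%). The control arrays enter this comparison through the spread shared by the 3 groups. Without either empty-vector array still no member passed, but 0.355% of all genes were called higher with shRNA1, and 10 members were higher at an unadjusted p under 0.05, against 6.9% of all genes. The shRNA1 level was above the shRNA2 level for 32 of 38 members and below it for 6 (15.8%, against 55.0% of all genes). The median log2 difference was 0.25 beside -0.02 for all genes. At an unadjusted p under 0.05, 3 members were higher with shRNA1 (7.89%, background 3.26%) and none was lower (background 1.63%). Trim25 differed by 0.51 (95% interval 0.16 to 0.86, adjusted p = 0.674). Its shRNA1 arrays, at 10.18 and 10.14, lay between the controls of 10.22 and 10.10, and both shRNA2 arrays read 9.65. Oas1a differed by 0.63 (95% interval 0.03 to 1.22, adjusted p = 0.971) and Usp18 by 0.92 (95% interval 0.02 to 1.82, adjusted p = 0.999). For Ifit1 the difference was 0.61 with an interval from -0.25 to 1.47, and for Rsad2 it was 0.54 with an interval from -0.82 to 1.89, so a difference between hairpins in either direction was within reach of these arrays. Cmpk2 stood at 0.01 (interval -0.83 to 0.85). Rad21 itself was 0.08 higher with shRNA1 (interval -0.65 to 0.81).

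**Figure D3:**
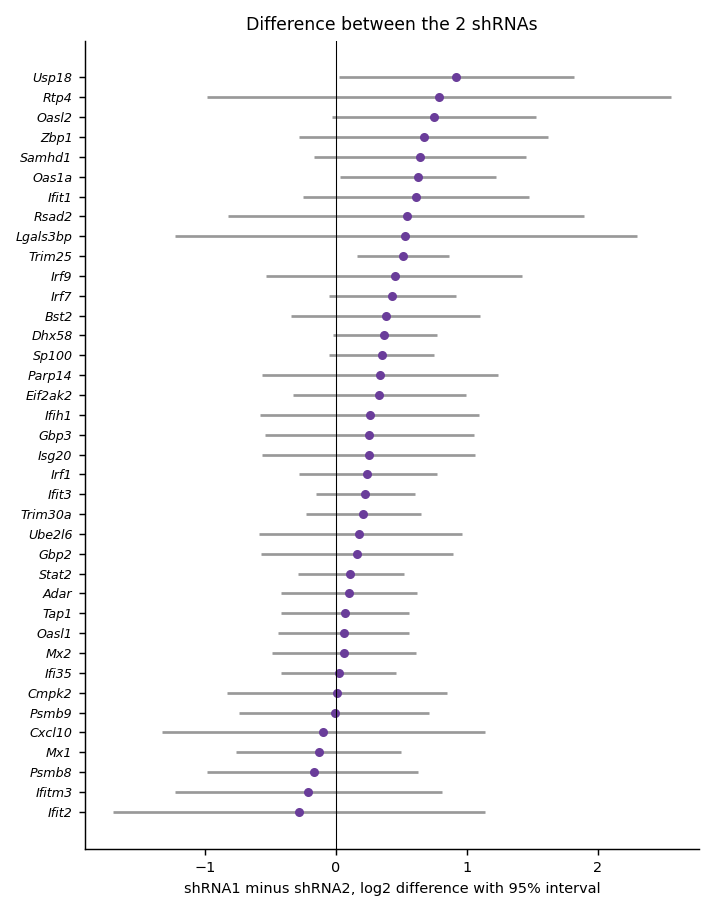
Log2 difference between Rad21 shRNA1 and Rad21 shRNA2 for each member, with points for the fitted difference and lines for its 95% interval from the limma fit. Of the 38 points, 32 lie above 0, and the intervals of Usp18, Oas1a and Trim25 leave out 0.

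The members' controls agreed less well than those of most genes. The median size of the gap between the empty-vector arrays was 0.70 over the members and 0.33 over all genes, and 11 members had a gap of 1 or more. Within shRNA1 the corresponding medians were 0.27 and 0.17, and within shRNA2 0.13 and 0.15. Replicate 1 was the lower control for 24 members and the higher for 14. Against empty vector replicate 2 alone, which leaves out the array with the high 3′ minus 5′ values, 35 members had a difference below 0 (92.1%, against 46.9% of all genes), with a median of -0.67 beside 0.02. With 1 control array, the spread in that fit came from the shRNA arrays alone, so its calls carry no measure of control variation. In that fit 12 members fell (31.6%, against 3.27% of all genes) and none was called higher (background 1.97%). Beyond Ifit1, Rsad2, Oasl2 and Usp18 these were Cmpk2, Ifit3, Isg20, Lgals3bp, Oas1a, Rtp4, Samhd1 and Zbp1. Rtp4 then had a difference of -2.91 (adjusted p = 0.012) and Lgals3bp of -1.38 (adjusted p = 0.0433).

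Against empty vector replicate 1 alone, the median was -0.33 beside -0.07 for all genes, with 26 members below 0 (68.4%, against 57.6% of all genes). In that fit 14 members were called lower (36.8%, against 12.1% of all genes) and 5 higher (13.2%, against 13.1%). The 5 were Ifit2 at 1.02, Ifitm3 at 1.38, Lgals3bp at 0.96, Psmb8 at 1.11 and Psmb9 at 0.81, whereas against replicate 2 their differences were -0.84, 0.04, -1.38, 0.09 and -0.08 in the same order. Lgals3bp was thus called in opposite directions by the choice of control array. In both of these fits the lone control was assumed to vary like the shRNA groups. The root mean square spread of those groups was 0.152 and 0.141, whereas that of the 2 empty-vector arrays was 0.321. The calls of both fits therefore leave out the variation between controls. Ifit1, Rsad2, Oasl2, Usp18, Cmpk2 and Ifit3 were called lower in both. The part of RNA integrity in these gaps was not tested.

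**Figure D4:**
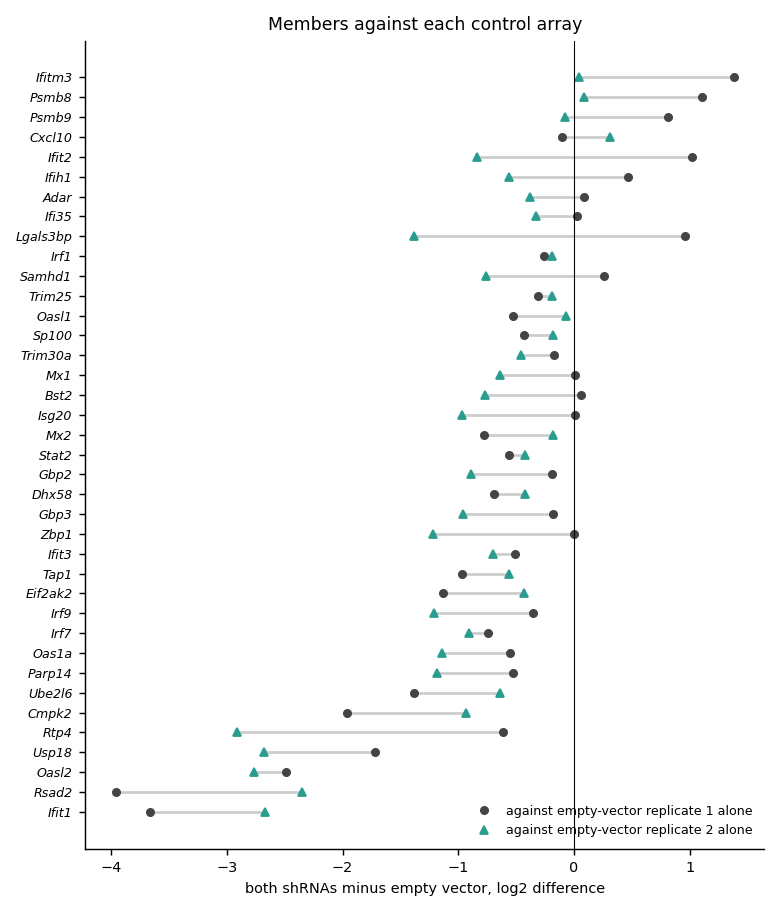
Log2 difference between both shRNAs and empty vector for each member, computed against empty vector replicate 1 alone (grey circles) and replicate 2 alone (green triangles), with a line joining them. Lines for Ifit1, Rsad2, Oasl2 and Usp18 lie at -1.72 or lower, and those for Ifit2 and Lgals3bp cross 0 with ends from -1.38 to 1.02. Shorter lines for Psmb9, Isg20, Adar, Samhd1, Ifih1, Mx1, Bst2, Ifi35 and Cxcl10 also cross 0.

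For 12 members more than 1 probe set was assigned to the gene, and for 8 of them all sets differed in the same direction. The 3 probe sets of Rsad2 gave -3.16, -3.00 and -1.40, each with all 4 shRNA arrays below both controls. Those of Eif2ak2 gave -0.78 and 0.55, those of Stat2 -0.49 and 0.09, and those of Gbp2 -0.54 and 0.01. For Tap1 they gave -0.77, 0.14, -0.23 and -0.28. The brightest set gave the lowest value for each of these 4 genes. The sets of Cmpk2 gave -1.45 and -0.22, and only the brighter had all 4 shRNA arrays below both controls. Those of Rtp4 gave -1.76 and -0.30. Those of Dhx58 gave -0.55, -0.24 and -0.06, and only the brightest had all 4 shRNA arrays below both controls. A dimmer set of Trim25 gave -1.07, with all 4 shRNA arrays below both controls, where its brightest gave -0.25. Ifit1, Oasl2 and Usp18 had 1 probe set each.

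The rest of the interferon pathway was read from lists of further genes. Of 10 measured interferon ligands, 12 receptors, kinases and STATs, 6 other IRF family genes and 15 negative regulators, none passed the limma test for both shRNAs against empty vector, with medians of -0.07, 0.01, -0.22 and -0.01. At an unadjusted p under 0.05, 0 genes of the first 3 lists differed, and of the negative regulators 2 were higher and 3 lower. Of all genes, 7.88% were higher and 8.84% lower at that threshold. Ifna11 had the smallest p among the ligands (0.32, adjusted p = 0.433), followed by Ifna1 (-0.35, adjusted p = 0.515). Among receptors and STATs these were Il10rb (-0.47, adjusted p = 0.318) and Stat5b (-0.31, adjusted p = 0.45), and among IRF genes Irf2 (-0.42, adjusted p = 0.328) and Irf2bp1 (-0.27, adjusted p = 0.54). The phosphatase Ptpn6 had a difference of 1.14 ± 0.25 SE (adjusted p = 0.0966) and Foxo3 one of -1.01 ± 0.32 SE (adjusted p = 0.201). Of 16 sensors and adaptors upstream of interferon, the DNA sensor family gene Ifi204 fell and the kinase gene Ikbke rose. Ifi204 read 7.53 and 8.14 with empty vector, 6.79 and 6.91 with shRNA1, and 4.93 and 4.86 with shRNA2, a stepwise order without overlap (-1.96 ± 0.20 SE, adjusted p = 0.0148). Ikbke read 8.36 and 8.12, then 9.17 and 8.91, then 9.23 and 9.28 (0.91 ± 0.15 SE, adjusted p = 0.0485, and 0.0531 with the replicate block).

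Of 69 interferon-stimulated genes outside the 42, 48 had a difference below 0, against 53.6% of all genes, with a median of -0.18. At an unadjusted p under 0.05, 17 were lower and 6 higher, against 8.84% and 7.88% of all genes. After adjustment 1 fell, Igtp, a GTPase induced by interferon gamma, and 1 rose, Ifitm6, a relative of Ifitm3. Of all genes, 1.4% were called lower and 0.734% higher. Igtp read 9.75 and 9.60 with empty vector, 8.07 and 8.74 with shRNA1, and 7.78 and 7.90 with shRNA2 (-1.55 ± 0.21 SE, adjusted p = 0.0326). Ifitm6 read 8.32 and 8.05, then 11.30 and 10.85, then 10.89 and 10.23 (2.64 ± 0.24 SE, adjusted p = 0.0124). Its shRNA arrays were all above both controls, a separation that no member showed upwards. Of 23 inflammatory targets of NF-kB, the chemokines Ccl7 (-1.86 ± 0.22 SE, adjusted p = 0.0202) and Ccl4 (-1.04 ± 0.16 SE, adjusted p = 0.0412, and 0.0554 with the replicate block) fell, and the list's median was -0.08. The calls in these lists also depended on single arrays, with the adjusted p ranging up to 0.0925 for Ifi204, 0.214 for Ikbke, 0.16 for Igtp, 0.0699 for Ifitm6, 0.113 for Ccl7 and 0.19 for Ccl4.

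**Figure D5:**
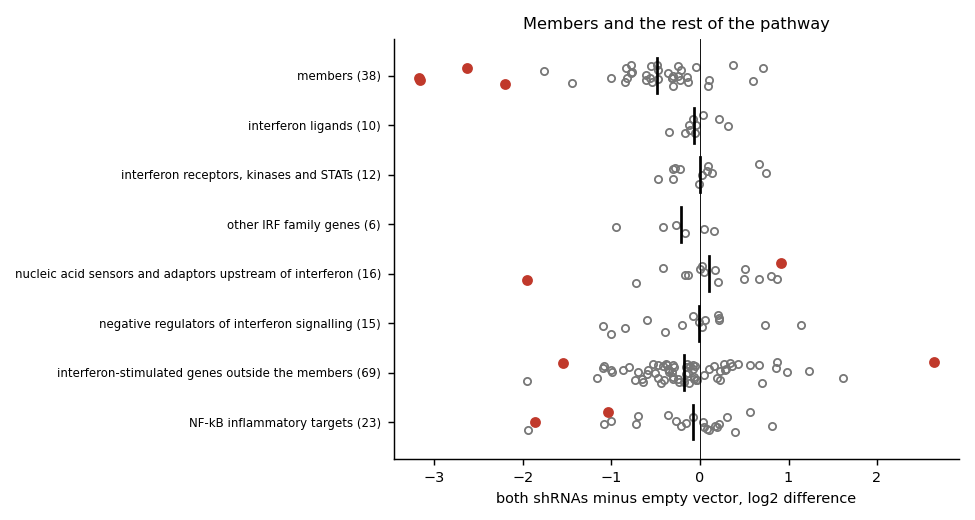
Log2 difference between both shRNAs and empty vector for the members and for 7 lists of other pathway genes, with the number measured in brackets. Each circle is a gene, filled red at an adjusted p under 0.05, and black bars mark list medians. The members' median of -0.49 is the lowest of the 8, but the lists were chosen with earlier results known, so their order is not a test. Outside the members only Ifi204, Ikbke, Ifitm6, Igtp, Ccl7 and Ccl4 are filled.

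Markers of several marrow cell types moved alongside these genes. As background for the counts below, 0.734% of all genes were called higher and 1.4% lower. All 4 shRNA arrays were above both controls for 11.5% of all genes and below both for 13.6%. Of 16 neutrophil markers, 6 rose, led by Mpo (5.34 ± 0.49 SE, adjusted p = 0.0124), Elane (4.98) and Prtn3 (4.93), none fell, and 13 had all 4 shRNA arrays above both controls. Their summed intensity was 47274 to 58693 with empty vector, 86658 to 102041 with shRNA1 and 104953 to 105735 with shRNA2. Of 13 conventional dendritic cell markers 2 fell, Ccl17 (-3.12 ± 0.41 SE, adjusted p = 0.0289, and -3.85 without empty vector replicate 1 or -2.40 without replicate 2) and Ccl22 (-0.94 ± 0.14 SE, adjusted p = 0.0412), 8 had all shRNA arrays below both controls, and the sums were 4311 to 5872, 2209 to 2966 and 1610 to 1979 in the same order of groups. Of 18 monocyte and macrophage markers 1 rose, Fcgr1, and 2 fell, Cd36 and Marco, with sums of 32567 to 62862, 52406 to 56212 and 36305 on both shRNA2 arrays. Of 14 mast cell and basophil markers 3 fell (43460 to 58800, 26047 to 35976 and 30576 to 32840), and of 9 megakaryocyte markers 1 fell (18921 to 20947, 7996 to 15125 and 8743 to 9004). None of 15 erythroid markers passed, with a sum of 17877 on empty vector replicate 1 and 5804 to 6994 elsewhere. None of 11 plasmacytoid dendritic cell markers passed, the cells known for making most interferon, with sums of 1292 to 1295, 1539 to 1550 and 1418 to 1449. None of 9 B cell markers passed (216 to 258 over all arrays). Of 11 T and NK cell markers 1 rose, Nkg7. The list's sums were 8055.3 to 9352.6 with empty vector, 6284.5 to 7410.5 with shRNA1 and 5661.8 to 6669.7 with shRNA2. At an unadjusted p under 0.05 in the limma fit, 2 of these markers were higher and 3 lower, against 7.88% and 8.84% of all genes. No marker is at 0 on any array, since normalized array intensities have no true zero. The part of these cell types in the differences of the interferon-stimulated genes was not tested.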

How the data were processed

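Probe set intensities on a linear scale were deposited after RMA by the authors, per the submitters' processing notes; the sources used here name no RMA version and do not say if the 6 arrays were normalized jointly. RMA quantile-normalizes arrays, which hides changes in total RNA and compresses differences of dim probe sets. Values ran from 4.96 to 20614.6 with array medians of 100.2 to 104.9, and log2 was taken without a pseudocount. Of 22690 probe sets, 20393 had 1 gene in the platform annotation, 691 several and 1606 were not listed. The 64 control probe sets stayed out of the gene tests, and no gene was filtered for low intensity.

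The brightest of the 20380 probe sets used stood for each of 12393 genes. Differences were tested with limma 3.58.1 (R 4.3.3; lmFit and eBayes) in 1 fit of 3 groups, with 3 residual and 2.91 prior degrees of freedom, two-sided, with Benjamini-Hochberg adjustment over all genes and a threshold of 0.05. The script was checked on simulated data in which all arrays of a gene had the same spread, unlike the wider spread of the controls here. That check therefore does not show how well the p-values against empty vector hold. Tables and motif searches used pandas 2.3.3 and numpy 2.4.6 under Python 3.11.15, and plots matplotlib 3.10.9. With 2 arrays a group, their number limits the precision.

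Groups and replicate numbers came from the sample titles. Deviations of same-numbered arrays from their group means correlated at 0.199, 0.148 and 0.578 for the 3 pairs of groups, so the numbers were treated as pairing the arrays and a replicate block was fitted as an alternative. Other alternatives were filters on dim genes, the mean of all probe sets, quantile normalization, median centring, an intensity trend, an offset of 16 and leaving out each array.

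Members and gene lists were chosen with earlier results of these data known. Every member could be named. Array values were given for members past the threshold, for the 6 others with the largest difference and for those with a positive difference. Ifit3, Irf9 and Trim25 were added for comparison after their values were seen. From the other lists, genes past the threshold or those with the 2 smallest p were named, at most 3 per marker list. Gene order came from the RefSeq table of GRCm38.p6.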

Additional observations from a re-analysis of the deposited data

How the results depend on the processing

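Each alternative changed 1 choice. For both shRNAs against empty vector, 4 members passed when the dimmest 25% of genes were left out, with the mean of all probe sets, median centring, an intensity trend or the replicate block, and they were Ifit1, Rsad2, Oasl2 and Usp18 each time. Genes called in all ranged from 215 to 293 in these fits, beside 264 in the main fit. Quantile normalization kept 3 (Rsad2 was lost), and an offset of 16 kept 2 (Ifit1 and Oasl2). Leaving out the dimmer 50% of genes left 20 members to test, of which Rsad2 passed. Ifit1, Oasl2 and Usp18 were removed by that filter, so their calls were not tested there. Genes called in all were 213 with quantile normalization, 132 with the offset and 113 with the filter. For shRNA2 these 3 settings gave 3, 2 and 1 instead of 4, the filter again leaving only Rsad2 of the 4 to test. Genes called in all for shRNA2 were then 322, 209 and 180, beside 351 in the main fit. The replicate block gave 6 for shRNA2, with 449 genes called in all. For shRNA1, with 0 members past the threshold, median centring gave 1 and the intensity trend 2, with 56 and 59 genes called in all. Between the hairpins the count was 0 in every setting that kept all 6 arrays. At an unadjusted p under 0.05, 1 to 4 members were higher with shRNA1 in those settings, against 3.26% of all genes in the main fit. The replicate block changed no call among the members beyond Parp14 and Irf9 for shRNA2.

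Leaving out 1 array gave counts from 0 to 19 for both shRNAs, 0 to 14 for shRNA1 and 0 to 19 for shRNA2. The median difference of the members ranged from -0.67 to -0.33 for both shRNAs and from -0.56 to -0.15 for shRNA1 when an array was left out, and without the dimmer 50% of genes it was -0.31 and -0.15. With the mean of all probe sets the median was -0.35 and -0.25, beside -0.49 and -0.37 in the main fit. Single members whose sign turned did so only when an array was left out. Their lowest and highest differences were -0.84 (without empty vector replicate 1) and 1.02 (without replicate 2) for Ifit2, and -0.08 and 0.81 for Psmb9 under the same omissions. In that order they were -0.97 and 0.01 for Isg20, -0.38 and 0.09 for Adar, -0.76 and 0.26 for Samhd1, -0.56 and 0.47 for Ifih1, -0.64 and 0.01 for Mx1, -0.77 and 0.06 for Bst2, -1.38 and 0.96 for Lgals3bp, and -0.33 and 0.03 for Ifi35. Without empty vector replicate 2, Cxcl10 turned to -0.10, and it was -0.18 without shRNA1 or shRNA2 replicate 1 and 0.39 without shRNA1 or shRNA2 replicate 2. Without shRNA1 replicate 1, Ifit2 was -0.03, and without shRNA2 replicate 2, Ifih1 was 0.02. Dropping an array also leaves fewer samples, and the cause of these shifts was otherwise not tested. Of the members, 18 lay under the median intensity of all genes, where array signal over background limits the differences that can be seen.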
